A study of Oryza sativa with 6 samples.

Results

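The SPX and PHR genes described here are regulators of the phosphate starvation response of rice, read in seedling shoots of the dst mutant and of the wild type. They were selected by name: a probe set is a member where its single gene carries the whole name SPX1 to SPX6, PHR1, PHR2, PHO2 or IPS1, with or without the prefix Os. This gave 10 of the 57194 rice probe sets on the array, which read 7 of 17905 genes. SPX1, SPX2, SPX3 and PHR1 have 1 probe set each, and SPX4, SPX5 and PHR2 have 2 each. SPX6, PHO2 and IPS1 were not analysed here. No signal entered the rule, but the group was proposed with earlier results of the same comparison known, so the differences of its members between dst and wild type are given as a description and support no claim.

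The wild type was the japonica cultivar Zhonghua 11, and the other group was the dst mutant, for which the labels state neither the allele nor the parent cultivar. Shoots of 25-day-old seedlings were used in both groups, grown at 26 °C in 11 h of light and 22 °C in 13 h of dark. The labels name no phosphate treatment and no nutrient medium, so the phosphate supply of both groups is unknown. Every group had 3 biological replicates, 1 Affymetrix rice array for each, and so few arrays limit the precision. The DST protein, a transcription factor of the zinc finger class, is known for its part in stomatal opening and in drought and salt tolerance.

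In rice, PHR2 is the central activator of the response to low phosphate: it binds a short promoter element known as P1BS and switches on transporters and phosphate-saving enzymes. SPX proteins bind inositol pyrophosphates when phosphate is ample and then hold PHR2 back from its targets. Several SPX genes are themselves targets of PHR2, so their transcripts rise in phosphate-starved plants and serve as a readout of the response, whereas SPX4, PHR1 and PHR2 transcripts are known to respond little.

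The array signal is a linear value in arbitrary units, deposited by the authors with its scaling unstated. Median signals of the rice probe sets were 117.6 to 140.9 per array. The brightest probe set reached only 31461 on wild-type replicate 3 and 32620 on dst replicate 3, below the other 4 arrays. Of 21 probe sets under 10 shoot marker gene names, 19 lay above the array median on all 6 arrays. The name LHCP stands for more than 1 gene. The summed signal of the 21 was 277600 to 347726 on wild-type arrays and 284702 to 332605 on dst arrays. The 12 probe sets for 9 genes listed as root markers summed to 25887 to 34760 on wild-type arrays and 15795 to 35376 on dst arrays. Of these, the silicon transporter gene Lsi2 was near the bottom of the array at 10.2 to 16.7, while its partner Lsi1 was at 1303 to 1764. Most of the root sum came from the iron acquisition genes NAS1, NAS2 and NAAT1, and these were lowest on dst replicate 1. The iron transporter gene YSL15 read 547.4, 571.0 and 613.9 in the wild type and 150.4, 250.2 and 477.8 in dst, all lower, a log2 difference of -1.14 ± 0.35 (SE), adjusted p 0.255 in limma. The means of IRT1, NAS1 and NAS2 were also lower in dst, with log2 differences of -0.63, -0.46 and -0.36. The chloroplast regulator gene GLK1 was higher on every dst array, by 0.56 ± 0.17 on that scale (SE), adjusted p 0.246 in limma. The groups overlapped in the other marker probe sets of both lists, while 16.6% of all fitted probe sets had groups that did not overlap. No marker passed the threshold in limma, where 0.924% of the fitted probe sets passed. The part of root RNA or of these shifts in the values below was not tested.

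None of the member genes was shown to differ between dst and wild-type shoots. In limma, fitted to the 34316 probe sets whose mean signal reached 70.5 or more, 7 of the 10 members were present. None of the 7 passed an adjusted p of 0.05, where 0.924% of the fitted probe sets passed, and 0 of the 7 had an unadjusted p under 0.05, as 10.5% of the fitted probe sets had. SPX3 and both probe sets of SPX5 lay below that signal. In 1 of the 7, a PHR2 probe set, the dst and wild-type values did not overlap, which was also so for 16.6% of all fitted probe sets. In such tissue samples, fewer cells of a type and less RNA per cell cannot be told apart.

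Among the SPX genes, SPX1 encodes a nuclear inhibitor of PHR2. Its signal was 498.6, 531.3 and 449.3 on the wild-type arrays and 443.9, 553.3 and 474.7 on the dst arrays. The groups overlapped fully, with the highest value and the lowest value both in dst. The means were 493.1 ± 41.3 in the wild type and 490.6 ± 56.4 in dst (SD, n = 3), a ratio of dst to wild type of 0.993 with a 95% interval of 0.776 to 1.27.

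SPX2, which acts alongside SPX1 on PHR2, had signals of 538.8, 460.2 and 635.4 in the wild type and 495.3, 440.2 and 548.8 in dst. These too overlapped. The ratio was 0.912, with an interval of 0.697 to 1.19. In both genotypes the array numbered 2 gave the lowest SPX2 signal and the array numbered 3 the highest, while SPX1 was highest on the array numbered 2 in both. Over the 6 arrays the log2 signals of SPX1 and SPX2 ran in opposite directions, with a Pearson r of -0.73, and of -0.81 for deviations from the group means. These 6 points share their arrays and scaling, and the labels do not say that a replicate number marks a common batch. The highest signal of an array was lowest on replicate 3 in both genotypes, at 31461 in the wild type and 32620 in dst. The median signal was lowest on replicate 3 in the wild type, at 117.6, but on replicate 2 in dst, at 123.9. Whether same-numbered arrays shared a batch is unknown.

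SPX4 encodes an inhibitor that binds PHR2 in the cytoplasm and is broken down when phosphate runs low. Its brighter probe set, with the suffix S1_x_at, read 644.0, 641.8 and 649.4 in the wild type and 512.6, 647.7 and 545.5 in dst. In dst, 2 of the 3 values lay below the whole wild-type range and the other fell within it. In the array's naming, x marks a probe set in which some probes may also match other transcripts. The ratio was 0.877, with an interval of 0.700 to 1.099.

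The dimmer SPX4 probe set, S1_at, read 139.5, 212.5 and 87.5 in the wild type and 108.9, 124.6 and 118.1 in dst. All 3 dst values lay inside the wild-type range. Its ratio of 0.852 had a wide interval, 0.472 to 1.54. The probe sets did not follow each other across the arrays: the log2 ratio of the brighter to the dimmer was 2.21, 1.595 and 2.89 on the wild-type arrays and 2.24, 2.38 and 2.21 on the dst arrays.

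SPX3 and SPX5, close relatives that also restrain PHR2, are known in rice as genes strongly induced by phosphate starvation. SPX3 gave 37.7, 71.7 and 39.0 in the wild type and 76.6, 83.5 and 64.5 in dst. Its dst mean was higher, but wild-type replicate 2 lay within the dst values. The estimate without the signal filter was 0.66 ± 0.52 on the log2 scale (SE), with an interval of -0.50 to 1.82. SPX3 thus sat just under the limit of 70.5 that the filter set, with a geometric mean signal of 59.3.

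SPX5 was near the bottom of the array. Its probe set S1_at read 2.0, 20.7 and 3.5 in the wild type and 37.4, 4.3 and 46.2 in dst, and its probe set S1_x_at read 6.1, 42.9 and 30.8 against 55.3, 33.1 and 8.5. The values overlapped in both. The probe sets even put different arrays first: dst replicate 3 was the highest array in the first and the second lowest in the other. Estimates without the filter were 1.89 ± 1.09 and 0.32 ± 0.96 on the log2 scale (SE). No detection calls were used, so whether SPX5 was measured above background in these shoots is unknown.

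**Figure D1:**
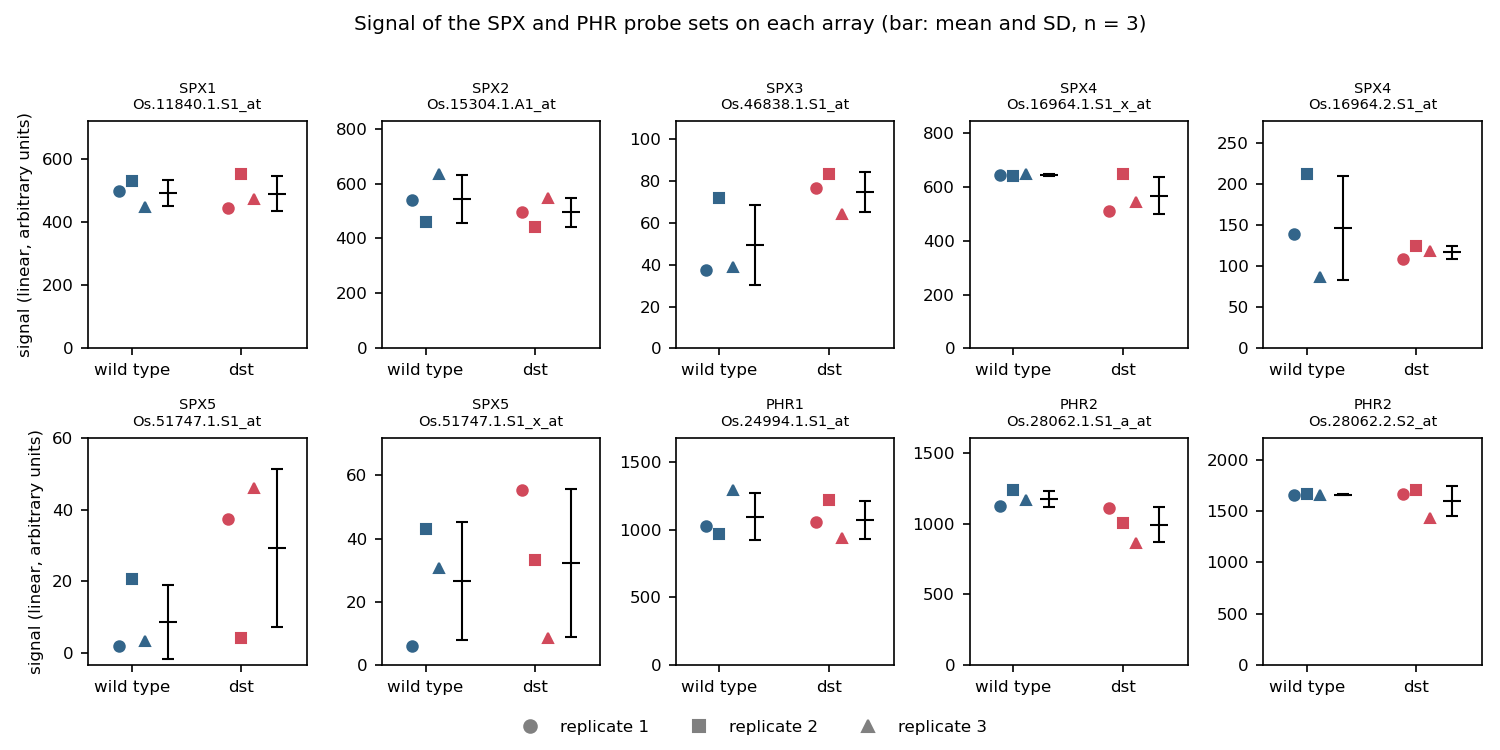
Signal (linear, arbitrary units) of each of the 10 SPX and PHR probe sets on the 3 wild-type and 3 dst arrays; the points are arrays, their shapes are the replicate numbers, and the bars are the mean and SD of 3. The groups overlap in 9 panels and are apart in the panel of PHR2 probe set S1_a_at, where the dst values reach from 862.0 to 1108 and the wild-type values from 1124 to 1237.

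Of the transcription factor genes, PHR1 encodes a relative of PHR2 that acts in the same response. It read 1032, 972.1 and 1293 in the wild type and 1056, 1225 and 942.7 in dst. The groups overlapped, with the highest value on wild-type replicate 3 and the lowest on dst replicate 3. The ratio was 0.980, with an interval of 0.771 to 1.25. With the third array of each group left out the log2 difference moved from -0.03 to 0.18, so its sign rested on those arrays.

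PHR2, the central activator, was read by 2 probe sets. The first, S1_a_at, in whose suffix a marks probes shared by variants of 1 gene, gave 1124, 1237 and 1165 in the wild type and 1108, 1005 and 862.0 in dst. All dst values lay below all wild-type values, by a margin of 15.1 between the nearest arrays, which were both numbered 1. The means were 1175 ± 57.6 and 991.7 ± 124 (SD, n = 3), the log2 difference was -0.25 ± 0.13 (SE), and the ratio of 0.840 had an interval of 0.684 to 1.03 that includes no change. With median centring of the arrays the groups overlapped.

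The second, S2_at, gave 1655, 1668 and 1659 in the wild type and 1665, 1703 and 1430 in dst. Here dst replicate 3 stood below the other 5 arrays, which lay close together. The ratio was 0.960, with an interval of 0.805 to 1.15. The log2 ratio of the first PHR2 probe set to the second was -0.56, -0.43 and -0.51 in the wild type and -0.59, -0.76 and -0.73 in dst. That ratio was lower on every dst array than on any wild-type array, while the like ratios of SPX4 and of SPX5 overlapped. Among single fitted probe sets 16.6% had groups that did not overlap, and no share for ratios is given here. The nearest PHR2 ratios, -0.56 and -0.59, were both from replicate 1, and the difference was not tested. Which part of the transcript each PHR2 probe set reads is unknown here.

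The members' spread between replicates differed from probe set to probe set. The coefficient of variation in the wild type was 0.382% for the second PHR2 probe set and 0.606% for the brighter SPX4 probe set, against 9.26% and 12.4% in dst. For the dimmer SPX4 probe set the order was reversed, at 42.9% in the wild type and 6.73% in dst. Of the 7 fitted members, 4 varied more in dst and 3 varied more in the wild type.

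In all 7 fitted members the dst mean was the lower, with a median log2 difference of -0.13, while over all fitted probe sets 52.8% were higher by the mean in dst and the median was 0.02. The 7 include both probe sets of SPX4 and of PHR2, and all 3 members under the filter had a higher mean in dst. Over all 10 without a filter the median was -0.04, against 0.02 for the 57194 rice probe sets. The count of 7 lower means held with quantile normalization and with median centring, and it was 4 without dst replicate 3 and 5 without wild-type replicate 2.

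**Figure D2:**
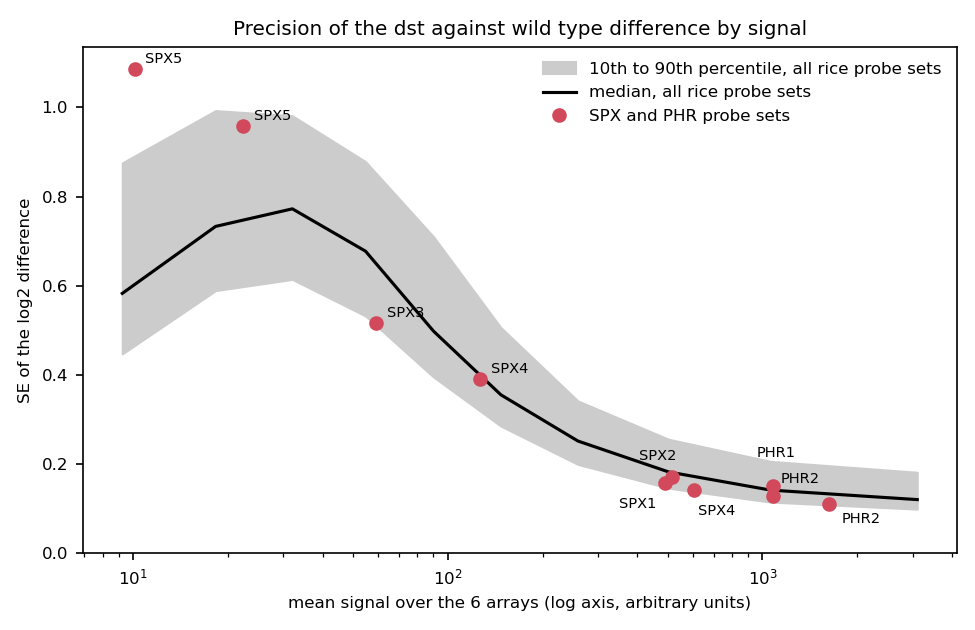
SE of the log2 difference between dst and wild type, from the limma model without a filter, against the mean signal over the 6 arrays on a log axis; the line and band are the median and the 10th to 90th percentiles of all rice probe sets in 10 equal bins of signal, and the points are the 10 members. SPX1, SPX2, PHR1, PHR2 and the brighter SPX4 probe set have an SE of 0.110 to 0.172, and SPX5 has 0.958 and 1.09.

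The precision followed the signal. For SPX1, SPX2, PHR1, PHR2 and the brighter SPX4 probe set, the limits of the 95% intervals lay between 0.684-fold and 1.27-fold, so a halving or a doubling lay outside each of them. The dimmer SPX4 probe set had an interval of 0.472-fold to 1.54-fold, so a halving lay within it. For SPX3 and SPX5 the intervals reached up to 3.52-fold, 20.2-fold and 5.54-fold, so rises of several fold in these genes lay within them.

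Other genes of phosphate uptake, allocation and saving were matched by name, which gave 19 genes, and 16 of them were fitted with 1 probe set for each gene. None of the 16 rose and none fell at an adjusted p of 0.05 in limma over 16013 genes, of which 1.11% passed. At an unadjusted p under 0.05 there was 1, PHR3, or 1 of 16 where 12.6% of all genes lay under it. The median log2 difference was -0.06, against 0.02 over all genes, with 6 genes higher in dst and 10 lower. The groups did not overlap in 3 of the 16, where 19.2% of all genes had groups that did not overlap. The 3 were PHR3, PHO1-2 and PAP2, and the place of PAP2 in the list is uncertain.

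Among 4 regulators, PHR3, a relative of PHR2 with which it shares function in rice, had signals of 403.6, 543.9 and 519.5 in the wild type and 350.9, 206.8 and 288.0 in dst. Every dst value was below every wild-type value. The log2 difference was -0.82 ± 0.23 (SE), lower in 3 of 3 dst arrays, with an adjusted p of 0.165 in limma, so it did not pass. NIGT1, a nitrate-inducible repressor of the GARP family, to which the PHR proteins also belong, measured 127.5, 194.9 and 109.3 in the wild type and 199.5, 182.3 and 224.6 in dst. Its groups overlapped, and the log2 difference was 0.53 ± 0.29 (SE), adjusted p 0.514 in limma.

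Of 9 genes of the PHT1 family of phosphate transporters, 7 were fitted, of which 1 had a higher mean in dst and 6 a lower one. PT8, a high-affinity transporter of roots and shoots, read 927.5, 915.3 and 1325 in the wild type and 736.3, 887.2 and 1059 in dst in its brightest probe set. A log2 difference of -0.23 ± 0.19 (SE), adjusted p 0.681 in limma, came from this set, and it was -0.06 without wild-type replicate 3. Leaving out dst replicate 1 gave -0.10, and leaving out dst replicate 3 gave -0.36. The second PT8 probe set, S1_at, measured -0.30 ± 0.13 (SE) with all dst values lower, and the third read 2.3 to 9.9 on all arrays. PT12 measured 132.5, 91.6 and 98.9 against 36.8, 108.2 and 50.5, a log2 difference of -0.86 ± 0.52 (SE) with overlapping groups and an adjusted p of 0.559 in limma. Several of these transporters are close copies, and probe sets with the suffix x may read more than 1 of them.

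Both fitted genes for PHO1-type phosphate exporters had a higher mean in dst. PHO1-2, known in rice for moving phosphate from root to shoot, read 1268, 1120 and 1284 in the wild type and 1337, 1332 and 1542 in dst. In this brightest probe set the groups did not overlap, and the log2 difference was 0.20 ± 0.12 (SE), adjusted p 0.568 in limma. The second PHO1-2 probe set read 320.5, 298.0 and 337.3 in the wild type and 329.0, 388.0 and 301.6 in dst, which overlapped, with a difference of 0.09 ± 0.18 (SE), and the third, below the filter, overlapped too. For PHO1-3 the difference was 0.10 ± 0.21 (SE), adjusted p 0.909 in limma. In the group for phosphate recovery and lipid remodelling, MGD3, which makes the galactolipids that can replace phospholipids, differed by 0.17 ± 0.13 on the log2 scale (SE), adjusted p 0.669 in limma. PAP2 entered that group by its name alone. Unrelated plant genes share that name, so whether this gene has a part in phosphate recovery is unknown here. It read 9033, 8841 and 8659 in the wild type and 7516, 7725 and 7942 in dst, which did not overlap, with a log2 difference of -0.19 ± 0.09 (SE) and an adjusted p of 0.415 in limma.

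**Figure D3:**
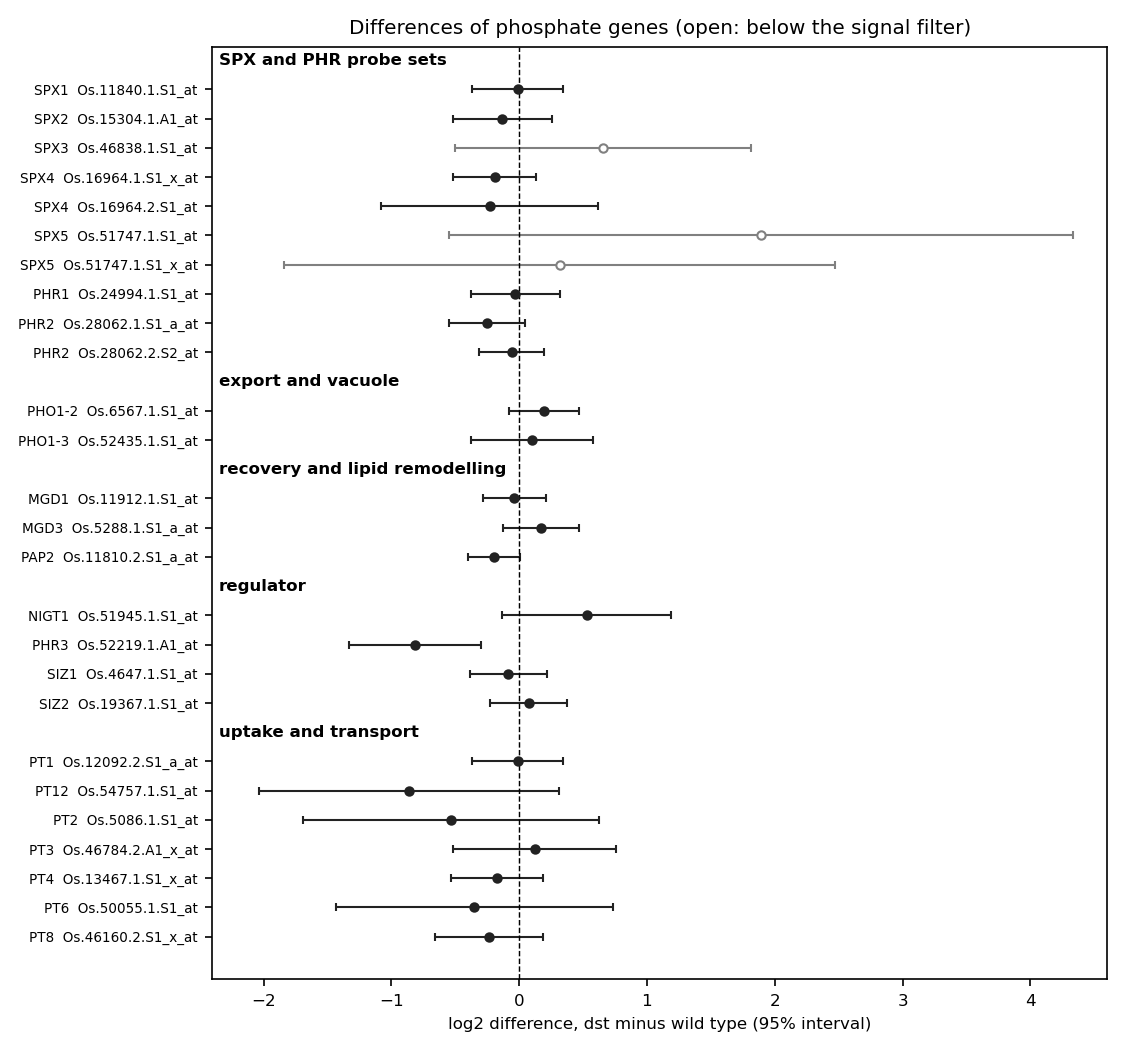
Log2 difference of dst minus wild type with its 95% interval for the 10 SPX and PHR probe sets and for the 16 fitted phosphate genes, 1 probe set for each; open grey points lie below the signal filter. Each of the 10 SPX and PHR intervals includes 0, and among the 16 other genes the interval of PHR3, centred on -0.82, does not.

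The pattern of the second PHR2 probe set over the 6 arrays was compared with 3026 fitted probe sets of other named genes. The nearest were those of D35, with a Pearson r of 0.987 of the log2 signals, TULP2 with 0.981 and CPA with 0.977. Deviations from the group means gave 0.986, 0.978 and 0.975. For the first PHR2 probe set, the nearest were SOC1 with 0.987, PNP1 with 0.980 and HTAS with 0.975, and their deviations gave 0.994, 0.983 and 0.968. Such values are the highest of 3026 and rest on 6 arrays that share their scaling.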

How the data were processed

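Per the labels' protocols, total RNA carried a biotin label and was hybridised following Affymetrix standards. The deposited values are 1 linear signal intensity per probe set and array. Which software and scaling made them is not given in the sources used here. Signals were raised to at least 1 before taking log2. Excluded were 187 control or reporter probe sets and those below the 40th percentile of mean log2 signal. The model was limma (version 3.58.1, R 4.3.3): lmFit on group alone, then eBayes with trend. P-values were adjusted by Benjamini-Hochberg over all fitted probe sets, or over genes with the brightest probe set for each. Ratios are back-transformed log2 differences. Names came from the platform annotation and from a RefSeq gene table (ASM3414082v1), used for names only. A growth-regulating factor that shares the synonym PT2 was left out of the pathway list. In each of its 4 groups the 2 genes with the smallest p were named, besides every member. Members and lists were chosen with earlier results of these data known. The procedure was tested on simulated data. A promoter motif search was planned and was not run. Figures were drawn with matplotlib 3.10.9.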

Additional observations from a re-analysis of the deposited data

How the results depend on the processing

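None of the fitted members and none of the fitted phosphate pathway genes passed the threshold in limma under any of the 16 alternatives: an offset of 16, 2 normalizations, 2 filters, no variance trend, array weights, a replicate block, omission of each array, replicates 1 and 2 only, and every probe set of a pathway gene. With the replicate block 0 of 7 members passed. Deviations of same-numbered arrays correlated at 0.05, 0.05 and 0.20 for replicates 1 to 3, and the main fit used no pairs. The count of members whose groups do not overlap was 1. It was 2 with quantile normalization, where the brighter SPX4 probe set joined PHR2, 0 with median centring, 1 to 2 with 1 array omitted, and 3 with replicates 1 and 2 only. The share of all fitted probe sets was 16.6%, and 17.0%, 13.9%, 23.9% to 28.7% and 41.4% in these settings. Small differences changed sign in some settings. With 1 array omitted, the log2 difference ranged from -0.0997 to 0.0592 for SPX1, from -0.557 to 0.0830 for the dimmer SPX4 probe set, from -0.542 to 1.09 for the x probe set of SPX5, from -0.128 to 0.0932 for PHR1, from -0.106 to 0.0200 for the second PHR2 probe set and from -0.00473 to 0.187 for PHO1-3. Without a change of sign, 1 omitted array moved others by over 1.5 times, besides PT8 above: SPX2 to -0.0151 without wild-type replicate 3, SPX2 to -0.248 and MGD3 to 0.0701 without wild-type replicate 2, the brighter SPX4 probe set to -0.118 and PT12 to -0.524 without dst replicate 1, the first PHR2 probe set to -0.154 and PHO1-2 to 0.127 without dst replicate 3. SPX2 became -0.0509 and -0.210 without dst replicates 2 and 3 and MGD3 0.260 without wild-type replicate 1. PT12 became -1.302 and the brighter SPX4 probe set -0.287 without dst replicate 2. The other SPX5 probe set ran from 1.197, without wild-type replicate 1, to 2.98, without dst replicate 2, with 2.88 without wild-type replicate 2. PHR1 became 0.0502 with array weights and 0.183 with replicates 1 and 2 only, where the second PHR2 probe set became 0.0193. The cause was not tested. On the array 317 probe sets passed, against 463 with the block, 80 with no variance trend, 532 with array weights, 203 with replicates 1 and 2 only and 115 to 281 with 1 array omitted. Signal over background is unknown, which limits SPX3 and SPX5.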
